A study of Arabidopsis thaliana with 19 samples.

Results

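Transcript levels of 27 nuclear genes of photosynthesis and chlorophyll synthesis were followed across an autopolyploid series of Arabidopsis thaliana, a small crucifer. The genes were chosen by name for their function, not by their values: nuclear-encoded subunits and antenna proteins of the photosystems, proteins of photosynthetic electron flow and of photosystem assembly, Rubisco activase, and enzymes of tetrapyrrole synthesis. Each had 1 probe set on the Affymetrix ATH1 array, out of 22746 probe sets tested. The samples were 19 single seedlings at an age of 2 weeks, each on 1 array. Of these, 5 were triploids with an excess of paternal genomes (3x(p)), 5 were triploids with an excess of maternal genomes (3x(m)), 5 were tetraploids (4x) and 4 were diploids (2x). The groups thus carried 3, 3, 4 and 2 genome copies. All were raised in a growth chamber on Murashige and Skoog medium, and the study's design text calls each seedling a biological replicate. The accession and the parents of the crosses are not given in the sources used here.

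Photosystem II and photosystem I are pigment-protein complexes of the thylakoid membrane that capture light and drive electrons from water to ferredoxin. Their reaction-centre proteins are mostly encoded in the plastid genome, whereas the antenna proteins, many small subunits and the assembly factors are encoded in the nucleus and imported. Chlorophyll and haem are made from a shared tetrapyrrole pathway that starts from glutamyl-tRNA and branches at protoporphyrin IX, and in green seedlings most of its flow goes to chlorophyll.

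Values are log2 expression values made by RMA, so a difference of 1 is a fold of 2. RMA brings the arrays to a near-common distribution (array medians 5.80 to 5.89), so a value shows a gene's level relative to the other transcripts of that seedling. Levels of different probe sets are not compared with each other. In whole seedlings, fewer green cells and less of a transcript per cell cannot be told apart. The table held values between 2.15 and 14.16, and 25 of the 27 genes lay outside the dimmest 30% of probe sets (mean under 4.07). The exceptions were HEMA3 and hemb2, whose small differences are therefore uncertain. Seedling 3x(m) 4 stood apart: its root mean square deviation from the median array was 0.526, the highest of the 19, and its chromosome 4 genes were shifted by a median of 0.12, while those of the other chromosomes were shifted by 0. Of the 27 genes 7 lie on chromosome 4, 7 on chromosome 1, 6 on chromosome 5, 5 on chromosome 2 and 2 on chromosome 3. The median differences that include 3x(m) 4, and the differences of several genes, are therefore also given without it.

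The comparisons with diploids asked whether transcripts of the photosynthetic apparatus change with added genome copies. No gene passed the test. In 3x(p) against 2x, 0 of 27 genes passed limma's test at an adjusted p under 0.05, where 1.15% of all probe sets passed. In 3x(m) against 2x it was 0 of 27 with a background of 0.0352%, and in 4x against 2x 0 of 27 with a background of 0.958%. At an unadjusted p under 0.05, limma gave 1 gene in 3x(p), 0 in 3x(m) and 1 in 4x, against 12.2%, 4.33% and 12.9% of all probe sets. The 1 gene was PORB both times. A single limma F test of any difference among the 4 groups called 0 of 27 genes (0.769% of all probe sets), and 0 had an unadjusted p under 0.05 (10.4% of all).

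Outside PORB, the differences were small as well as not called. Over the 27 genes, the median difference was 0.085 in 3x(p) minus 2x, 0.055 in 3x(m) minus 2x and 0.056 in 4x minus 2x, where the median of all probe sets was −0.0036, −0.0045 and −0.0033. Positive differences numbered 21, 21 and 19 of 27, against 49.1%, 48.4% and 49.2% of all probe sets, and 14 genes were positive in all 3 comparisons. These 3 comparisons share the 4 diploid arrays, so their signs are not independent. Without seedling 2x 1 the medians were 0.0098, 0.00013 and 0.011, and the positive differences numbered 17, 14 and 15. Without 2x 3 the medians were 0.024, 0.028 and 0.023. Without 3x(m) 4, the median for 3x(m) minus 2x was −0.031, with 10 positive. With array weights the positive differences numbered 17, 7 and 13, and the medians were 0.018, −0.072 and −0.0062, so the direction turned in 3x(m) and 4x. A further quantile normalization gave 0.0082 in 4x minus 2x, with 17 positive. For the median in 3x(p) minus 2x, leaving out 3x(p) 3 gave 0.016, with 16 positive. Single genes turned as easily: leaving out some 1 seedling reversed the sign of 14 genes in 3x(p), 17 in 3x(m) and 13 in 4x, and 3x(m) 4 alone did so for 13 of the 17.

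A missed threshold does not show equal levels, so the intervals bound what the arrays could have missed. The 95% interval of the difference lay within a fold of 2 in either direction for 26 of 27 genes in each comparison with diploids. It lay within a fold of 1.5 for 24 genes in 3x(p), 24 in 3x(m) and 23 in 4x (88.9%, 88.9% and 85.2%, against 81.2%, 85.2% and 81.3% of all probe sets). The gene whose interval reached beyond a fold of 2 was PORB. Outside PORB, the largest difference from diploids was 0.28, for PSAN in 3x(p).

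**Figure D1:**
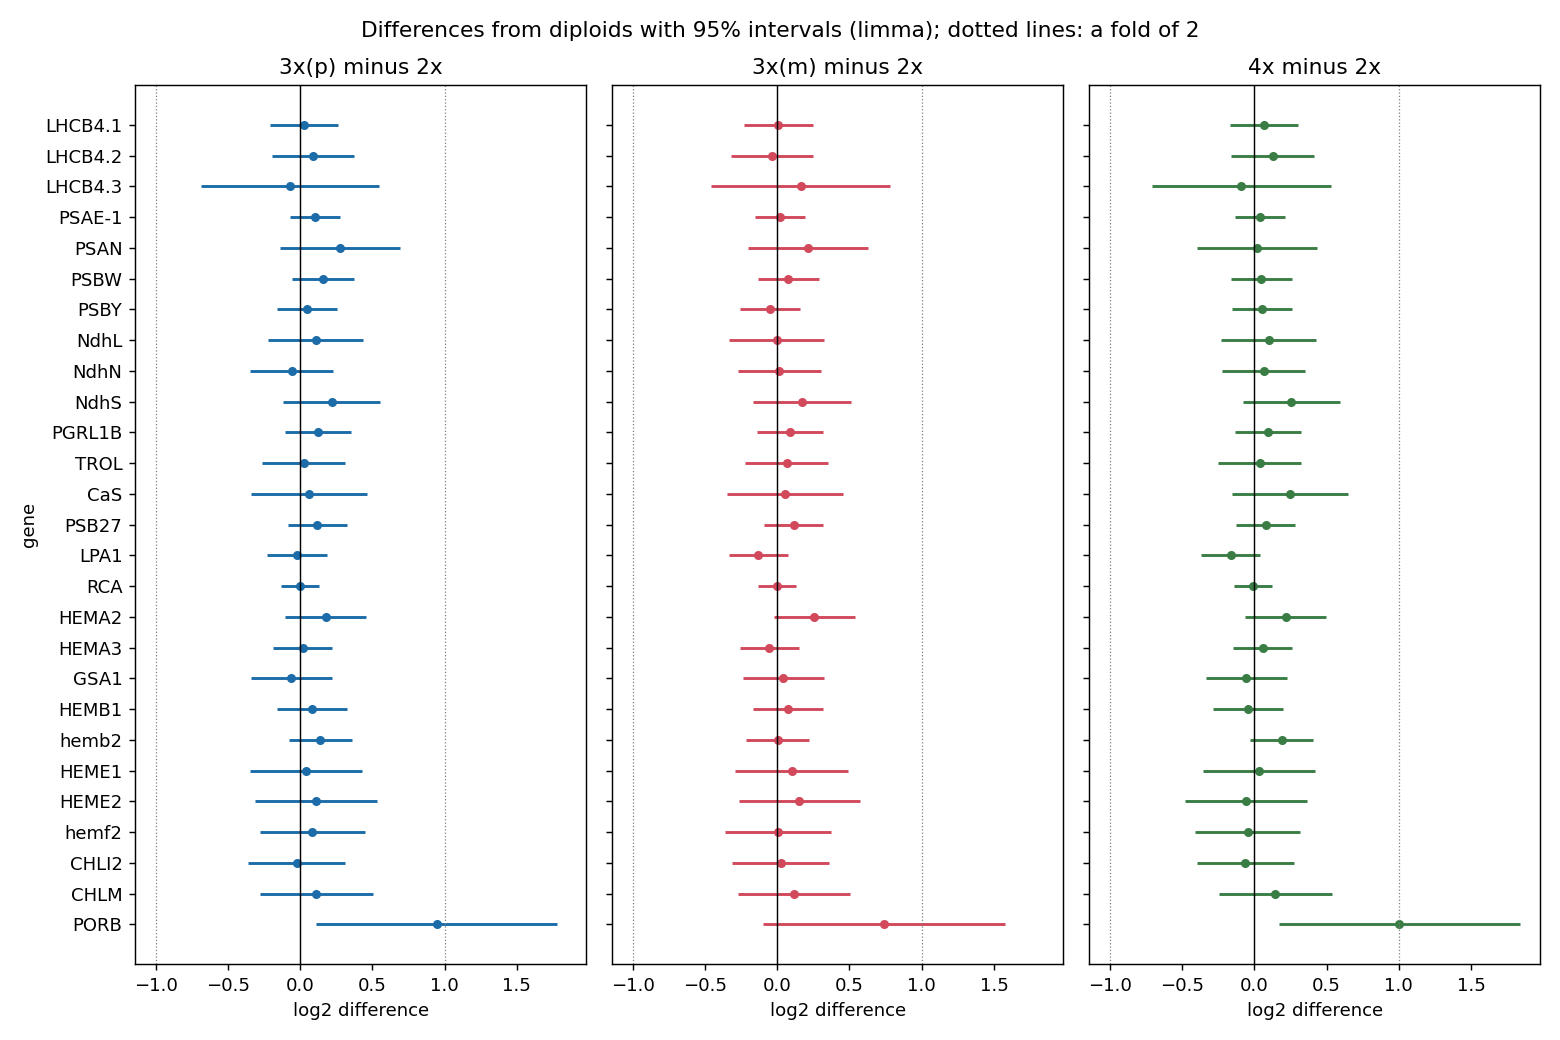
Differences of the 27 genes from diploids on the log2 scale (x axis) with 95% intervals from limma, in 3x(p), 3x(m) and 4x; dotted lines mark a fold of 2 in either direction. Only the intervals of PORB in 3x(p) and 4x exclude 0, before any adjustment, and only those of PORB pass a dotted line.

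The photosystem and antenna genes were 7. LHCB4.1, LHCB4.2 and LHCB4.3 encode the 3 forms of CP29, a minor antenna protein that links the trimeric antenna to the core of photosystem II. LHCB4.1, on chromosome 5, averaged 12.65 ± 0.25 in 3x(p), 12.63 ± 0.17 in 3x(m), 12.69 ± 0.07 in 4x and 12.63 ± 0.12 in 2x (SD, n = 5, 5, 5 and 4). Its differences from diploids were 0.026, 0.0084 and 0.067, with 95% intervals that reached at most 0.30. LHCB4.2, on chromosome 3, differed by 0.089, −0.035 and 0.13 in the same order, with intervals up to 0.41. LHCB4.3, on chromosome 2, was far more variable from seedling to seedling. Its values were 9.54, 9.18, 10.20, 9.60 and 10.15 in 3x(p), 9.89, 9.69, 9.50, 11.10 and 9.64 in 3x(m), 9.91, 8.98, 9.73, 10.23 and 9.72 in 4x, and 9.65, 9.59, 10.06 and 9.91 in 2x. The groups overlapped, and the highest value belonged to 3x(m) 4. Its differences from diploids were −0.07, 0.16 and −0.088, and its intervals were the widest of the family, reaching −0.46 to 0.78 in 3x(m). Without 3x(m) 4 the difference in 3x(m) was −0.12, so that seedling set its sign. The difference in 3x(p) was 0.069 without 3x(p) 2, and that in 4x was 0.095 without 4x 2. The smallest adjusted p of the 3 CP29 genes in any of the 6 comparisons was 0.773 (limma).

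**Figure D2:**
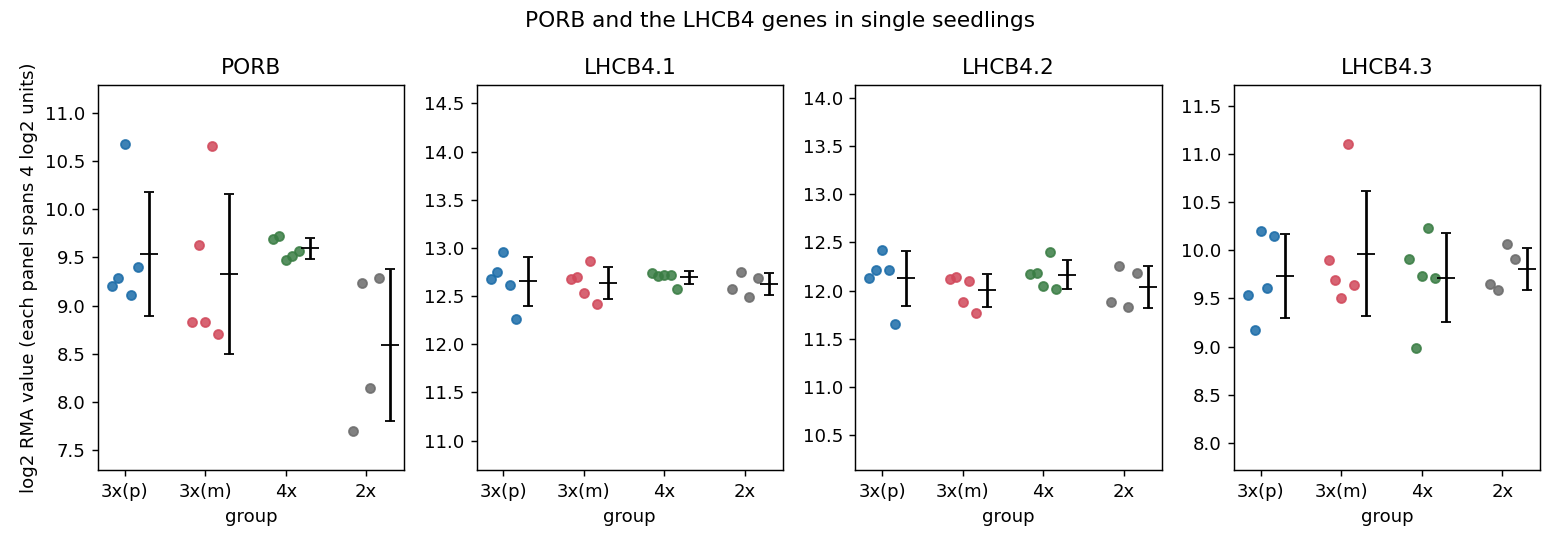
Log2 values (y axis) of PORB and the 3 LHCB4 genes in every seedling, by group, with the group mean and SD in black beside the points; each panel spans 4 log2 units. The 5 tetraploids lie between 9.48 and 9.72 for PORB, all above the 4 diploids, and LHCB4.3 spreads more widely than LHCB4.1 and LHCB4.2.

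PSAN encodes a subunit on the lumenal side of photosystem I, where plastocyanin docks. Its values were 12.37, 12.31, 12.68, 12.09 and 11.80 in 3x(p), 12.08, 12.24, 12.15, 12.78 and 11.69 in 3x(m), 12.36, 11.92, 11.68, 12.14 and 11.87 in 4x, and 11.91, 12.10, 11.65 and 12.23 in 2x. All groups overlapped. The differences from diploids were 0.28 ± 0.198 (SE) in 3x(p), 0.22 ± 0.198 in 3x(m) and 0.021 ± 0.198 in 4x, with adjusted p = 0.63, 0.999 and 0.979 by limma. The difference in 3x(m) was 0.067 without 3x(m) 4, that in 3x(p) was 0.17 without 2x 3, and that in 4x was −0.087 without 2x 3. PSBW, a small subunit of photosystem II, had 11.77, 11.84, 12.09, 12.04 and 11.73 in 3x(p), 11.81, 11.89, 11.77, 11.95 and 11.65 in 3x(m), 11.79, 11.71, 11.61, 11.92 and 11.89 in 4x, and 11.52, 11.92, 11.66 and 11.85 in 2x. The largest of its differences was 0.16 ± 0.101 in 3x(p) (adjusted p = 0.574), which was 0.086 without 2x 1, and all groups overlapped. PSAE-1, on the stromal side of photosystem I where ferredoxin docks, and PSBY, another small subunit of photosystem II, had differences from diploids between −0.048 and 0.10 and intervals that stayed within 0.28.

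The 9 genes of electron flow, assembly and regulation showed the same absence of calls. NdhL, NdhN and NdhS encode subunits of the chloroplast NDH complex, which returns electrons from ferredoxin to plastoquinone around photosystem I. NdhS, on chromosome 4, had 10.55, 10.50, 10.65, 10.09 and 10.07 in 3x(p), 10.55, 10.52, 10.12, 10.62 and 9.82 in 3x(m), 10.35, 10.37, 10.56, 10.55 and 10.24 in 4x, and 9.89, 10.17, 10.20 and 10.37 in 2x. The lowest value was in a 3x(m) seedling and the next in a diploid. Its differences were 0.22 ± 0.161 in 3x(p), 0.17 ± 0.161 in 3x(m) and 0.26 ± 0.161 in 4x (adjusted p = 0.651, 0.999 and 0.552, limma). Without 2x 1 they were 0.13, 0.08 and 0.17, and that in 3x(m) was 0.095 without 3x(m) 4. NdhL and NdhN differed from diploids by at most 0.11 in size. PGRL1B, on chromosome 4, belongs to the other route of cyclic electron flow and differed by 0.12, 0.09 and 0.096. Its differences were 0.050, 0.018 and 0.024 without 2x 1, and that in 3x(m) was 0.024 without 3x(m) 4. TROL, a thylakoid protein that tethers ferredoxin-NADP reductase, differed by 0.026, 0.066 and 0.037. Without 3x(m) 4 the difference of TROL in 3x(m) was −0.057.

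CaS, a thylakoid protein of calcium-dependent regulation, had 11.34, 10.97, 11.50, 10.89 and 11.20 in 3x(p), 11.35, 11.41, 10.85, 11.54 and 10.71 in 3x(m), 11.56, 11.04, 11.14, 11.64 and 11.44 in 4x, and 10.84, 11.37, 10.83 and 11.43 in 2x. All groups overlapped, and the lowest tetraploid was at 11.04. The tetraploids differed from the diploids by 0.25 ± 0.191 (adjusted p = 0.66), and by 0.15 without 2x 3. PSB27 and LPA1 act in building and repairing photosystem II. PSB27 differed by 0.12, 0.11 and 0.079. LPA1 had 7.97, 7.90, 8.15, 8.24 and 7.66 in 3x(p), 7.91, 7.91, 7.85, 7.99 and 7.71 in 3x(m), 7.90, 7.81, 7.88, 7.91 and 7.70 in 4x, and 7.95, 7.97, 7.96 and 8.13 in 2x. All 5 tetraploids lay below all 4 diploids, by a difference of −0.16 ± 0.0982 (adjusted p = 0.527), where 3.93% of all probe sets were without overlap in this direction. In 3x(p) and 3x(m) against 2x, 0 of 27 genes were without overlap, and over all probe sets 2.38% were higher and 2.48% lower in 3x(p), and 0.725% higher and 0.642% lower in 3x(m). Together with RCA it was one of 2 genes with a negative difference in each of the 3 comparisons with diploids.

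RCA encodes Rubisco activase, which frees the active sites of the carbon-fixing enzyme. Its 19 values lay between 13.72 and 13.98, a range of 0.255, and its differences from diploids were −0.0013 ± 0.0633 in 3x(p), −0.0003 ± 0.0633 in 3x(m) and −0.0069 ± 0.0633 in 4x. The intervals stayed within 0.14 in either direction. The highest value of any probe set was 14.16, and how far the top of the array's range limits differences of so bright a probe set was not tested.

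The tetrapyrrole genes were 11, and the early steps come first. HEMA2 and HEMA3 encode forms of glutamyl-tRNA reductase, the first committed enzyme. HEMA2 had 4.36, 4.75, 4.72, 4.75 and 4.50 in 3x(p), 4.38, 4.60, 4.58, 5.05 and 4.85 in 3x(m), 4.97, 4.60, 4.35, 4.74 and 4.62 in 4x, and 4.57, 4.47, 4.34 and 4.36 in 2x. The diploids occupied the lower part of the range, but every other group had seedlings there too. Its differences from diploids were 0.18 ± 0.134, 0.26 ± 0.134 and 0.22 ± 0.134 in 3x(p), 3x(m) and 4x (adjusted p = 0.66, 0.999 and 0.536). That in 3x(m) was 0.17 without 3x(m) 4, the seedling with the highest value. That in 3x(p) was 0.14 without 3x(p) 4, and that in 4x was 0.14 without 4x 1. HEMA3 differed by 0.019, −0.053 and 0.059. GSA1, an aminomutase that makes 5-aminolaevulinate, differed by −0.06, 0.044 and −0.057. Without 3x(m) 4 the difference of GSA1 in 3x(m) was −0.095.

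HEMB1 and hemb2 encode forms of 5-aminolaevulinate dehydratase. HEMB1 differed from diploids by 0.083, 0.074 and −0.045. The dim probe set of hemb2 had 3.23, 3.53, 3.43, 3.37 and 3.56 in 3x(p), 3.05, 3.31, 3.49, 3.37 and 3.23 in 3x(m), 3.24, 3.35, 3.56, 3.63 and 3.62 in 4x, and 3.10, 3.36, 3.38 and 3.31 in 2x. Its differences were 0.14 ± 0.104, 0.0028 ± 0.104 and 0.19 ± 0.104 (adjusted p = 0.657, 0.9997 and 0.47), and some seedlings of each polyploid group stood above all diploids. HEME1 and HEME2, the forms of uroporphyrinogen decarboxylase, differed by 0.043 and 0.11 in 3x(p), 0.1 and 0.15 in 3x(m), and 0.032 and −0.056 in 4x. Without 3x(m) 4 those in 3x(m) were −0.051 and −0.031, so that seedling set their sign. The smallest adjusted p over the 6 comparisons was 0.848 for HEME1 and HEME2, 0.47 for HEMB1 and hemb2, and 0.536 for HEMA2 and HEMA3. For hemf2, a coproporphyrinogen oxidase form on chromosome 4, the differences were 0.085, 0.0045 and −0.045. That in 3x(m) was −0.12 without 3x(m) 4.

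CHLI2 is a subunit of magnesium chelatase, which commits protoporphyrin to chlorophyll, and CHLM adds a methyl group in the next step. CHLI2 differed from diploids by −0.024, 0.025 and −0.061, and CHLM by 0.11, 0.12 and 0.15. The intervals reached 0.36 at most for CHLI2 and 0.54 for CHLM on the positive side. Without 3x(m) 4 the differences in 3x(m) were −0.055 for CHLI2 and 0.0042 for CHLM.

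PORB encodes a light-dependent protochlorophyllide oxidoreductase, which makes chlorophyllide, and lies on chromosome 4. It had the largest differences from diploids of the 27 genes and the smallest p in the F test (unadjusted p = 0.0847, adjusted p = 0.577, limma). Its values were 9.20, 9.29, 10.67, 9.11 and 9.40 in 3x(p), 8.83, 9.63, 8.83, 10.66 and 8.70 in 3x(m), 9.69, 9.72, 9.48, 9.51 and 9.57 in 4x, and 7.70, 9.23, 8.15 and 9.28 in 2x. The diploids fell into a low pair, 2x 1 and 2x 3, and a pair at the level of the triploids. A single seedling in each triploid group stood well above the rest, while the 5 tetraploids lay within 0.25 of each other. The group means were 9.54 ± 0.65 in 3x(p), 9.33 ± 0.83 in 3x(m), 9.59 ± 0.11 in 4x and 8.59 ± 0.79 in 2x (SD, n = 5, 5, 5 and 4).

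The differences of PORB from diploids were 0.94 ± 0.398 in 3x(p) (95% interval 0.11 to 1.78), 0.74 ± 0.398 in 3x(m) (−0.096 to 1.57) and 1.00 ± 0.398 in 4x (0.17 to 1.84). The adjusted p was 0.335, 0.999 and 0.273 by limma, so none passed. In 4x the groups did not overlap, with all 5 seedlings above all 4 diploids, where 3.31% of all probe sets behaved so. The size rested on few seedlings. Without 2x 1 the differences were 0.65, 0.44 and 0.71, without 3x(m) 4 that of 3x(m) was 0.41, and without 3x(p) 3 that of 3x(p) was 0.66. With array weights, the difference was 0.56 in 3x(p), 0.17 in 3x(m) and 0.67 in 4x.

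Seedlings differed more than groups. The seedling's median deviation over the 27 genes, each taken from its own median over all arrays, ran from −0.14 to 0.22 in 3x(p), from −0.27 to 0.19 in 3x(m), from −0.078 to 0.16 in 4x and from −0.25 to 0.033 in 2x. All 4 groups overlapped on this measure. In 3x(p) 3, 24 of 27 genes were above their median, and in 3x(m) 4 and 4x 4 it was 22 each. At the other end 25 genes were below their median in 2x 1, 23 in 3x(m) 5, 22 in 3x(m) 3, 21 in 2x 3 and 20 in 3x(p) 5. Over all probe sets, 40.3% to 50.0% were above their median in any seedling. The highest value of a gene was in 3x(m) 4 for 11 genes and in 3x(p) 3 for 7. The lowest was in 3x(m) 5 for 7, in 2x 1 for 6 and in 3x(p) 5 for 4. No share over all probe sets was set beside these counts of highest and lowest values. Seedling 3x(m) 4 had the highest root mean square deviation from the median array of any seedling (0.526). Whether its 11 highest values are particular to these genes was not tested.

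**Figure D3:**
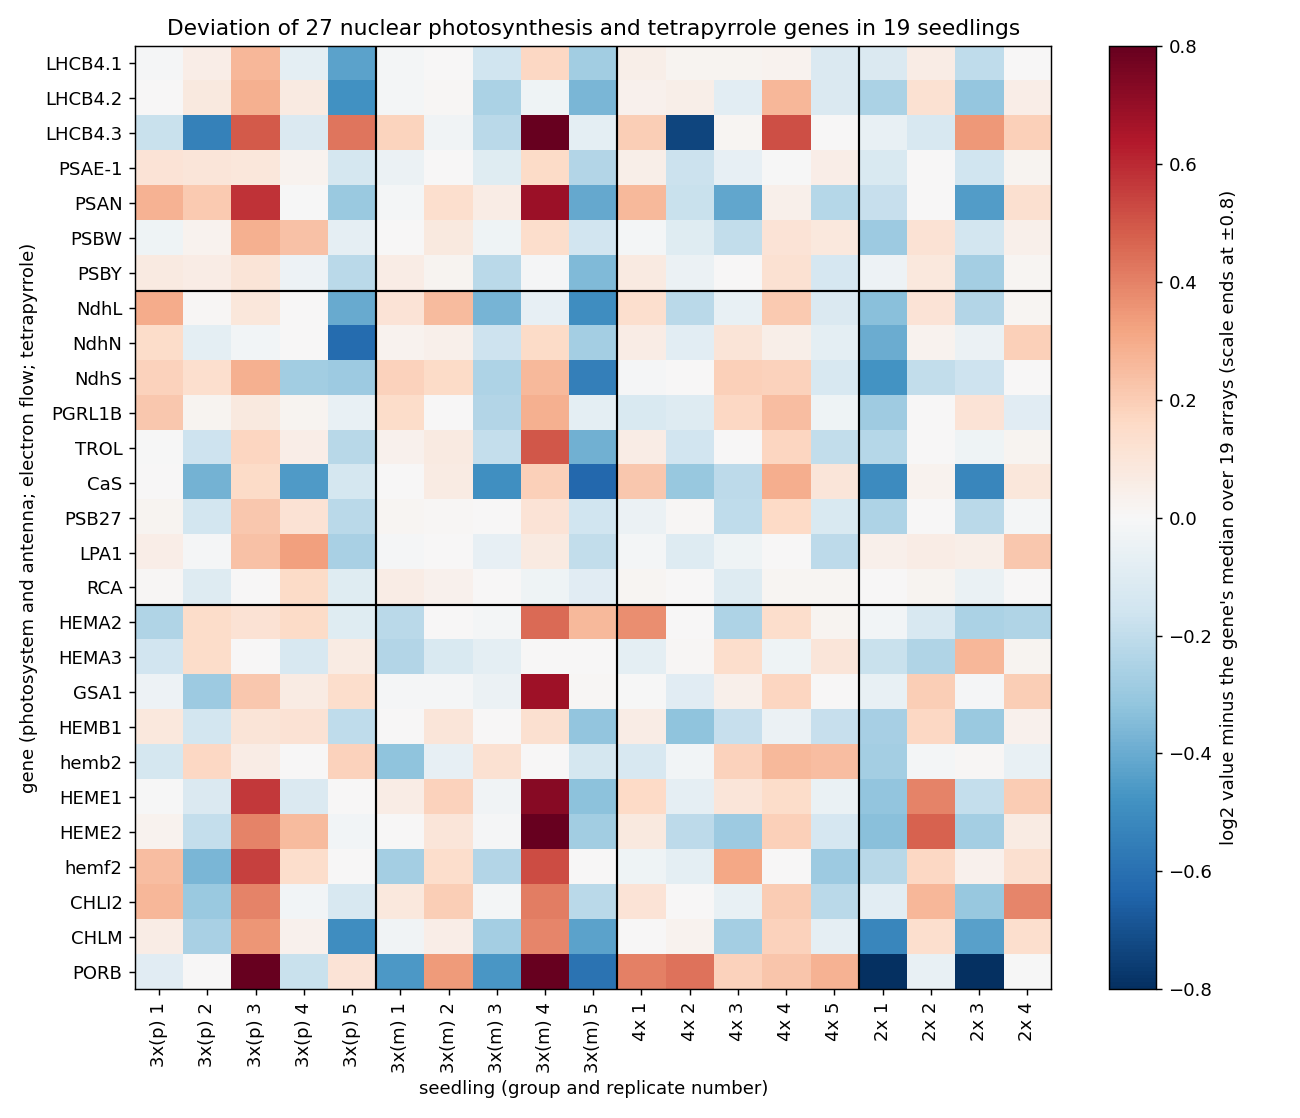
Log2 value of each gene (rows, in 3 blocks by role) minus its median over 19 arrays, in each seedling (columns, by group); red is above and blue below, with the colour scale ending at ±0.8. Columns 3x(p) 3, 3x(m) 4 and 4x 4 are mostly red and columns 3x(m) 5, 2x 1 and 2x 3 mostly blue, across all 3 blocks.

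The pattern crossed the role groups. In 3x(m) 4 the median deviation was 0.15 for photosystem and antenna genes, 0.15 for electron flow genes and 0.45 for tetrapyrrole genes, and in 3x(p) 3 it was 0.28, 0.16 and 0.36. In 3x(m) 5 these medians were −0.28, −0.27 and −0.22, and in 2x 1 they were −0.12, −0.28 and −0.27. In 3x(m) 4 the 7 genes on chromosome 4 had a median of 0.39 and the 20 on other chromosomes one of 0.15, so the shift of that seedling was also present outside chromosome 4. The share of a gene's sum of squares over the 19 seedlings that lay between groups had a median of 10.1%, against 16.3% over all probe sets. It was 29.998% for PORB, 27.7% for hemb2, 23.0% for LPA1, 20.7% for HEMA2 and 0.215% for RCA. Such a share lies above 0 even where the groups do not differ. No chance level was set beside it, so these shares cannot show that the group matters for a gene.

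The 69 plastid-encoded genes did not always move with the nuclear ones. In 3x(p) 3, 3x(m) 4 and 4x 4 they had median deviations of 0.28, 0.23 and 0.12, on the same side as the nuclear genes. In 2x 1 and 3x(m) 5 they were at −0.73 and −0.24. In 2x 3, however, the plastid-encoded genes were at 0.23 while the nuclear genes were at −0.19, and in 3x(m) 3 they were at 0.20 against −0.097. The same sides were seen in 4x 3 (0.16 against −0.033) and 4x 5 (0.14 against −0.078). The sides were reversed in 2x 4 (−0.39 against 0.033), 3x(p) 1 (−0.22 against 0.020) and 2x 2 (−0.15 against 0.025). Of 6 root markers 3 were measured, EXPA7, EXPA18 and PYK10. Their mean level was 8.44 to 9.06 in 3x(p), 7.69 to 9.24 in 3x(m), 8.72 to 9.62 in 4x and 8.05 to 8.93 in 2x. It was 7.69 in 3x(m) 4, the lowest of the 19, and 9.24 in 3x(m) 5, but 8.94 in 3x(p) 3 and 8.93 in 2x 1. Of these markers 0 passed limma in any comparison, and 2 of 3 had an unadjusted p under 0.05 in 4x against 2x (12.9% of all probe sets). There EXPA18 differed by 1.11 (limma adjusted p = 0.21), EXPA7 by 0.85 and PYK10 by 0.22, so the markers did not move by like amounts. Whether their mean follows the amount of root tissue was not tested, nor was the part of root tissue in these shifts.

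**Figure D4:**
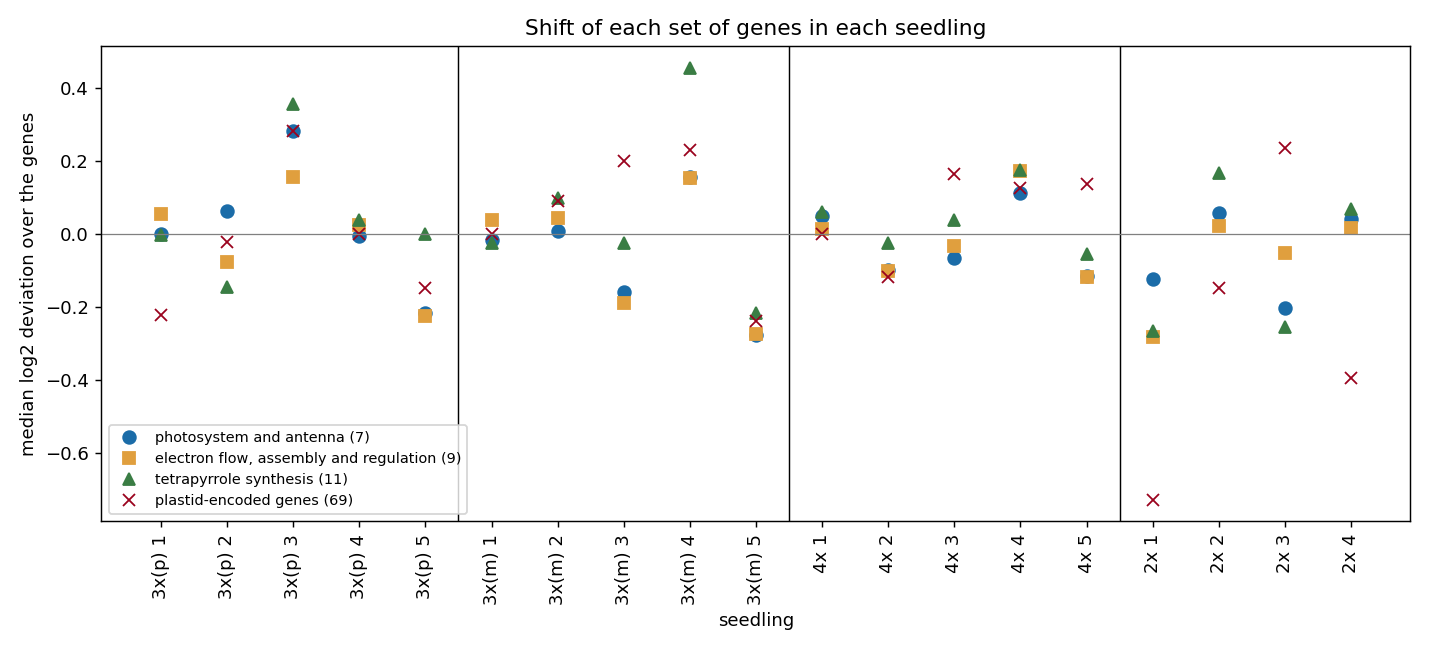
Median log2 deviation (y axis) of the photosystem and antenna, electron flow and tetrapyrrole genes and of the 69 plastid-encoded genes in each seedling (x axis). The 3 nuclear sets lie above 0 in 3x(p) 3, 3x(m) 4 and 4x 4 and below 0 in 3x(m) 5 and 2x 1. The plastid-encoded genes lie on the opposite side to the nuclear sets in 2x 3, where they are above 0, and in 2x 4, where they are below 0.

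The genes differed in how much they varied between seedlings of 1 group. The SD within groups was 0.65 for PORB, 0.48 for LHCB4.3, 0.32 for HEME2 and 0.32 for PSAN. It was 0.069 for RCA and 0.11 for PSAE-1. The median over the 27 was 0.21, and by role 0.17 for photosystem and antenna genes, 0.21 for electron flow genes and 0.25 for tetrapyrrole genes, against 0.20 for the 14509 probe sets at least as bright as HEMA2. Within that set PORB stood at the 97.3 percentile, LHCB4.3 at 92.9 and RCA at 0.159. Several arrays shared the same RCA value, 13.825 or 13.8376. How far the top of the array's range and the normalization narrow the spread of RCA was not tested.

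**Figure D5:**
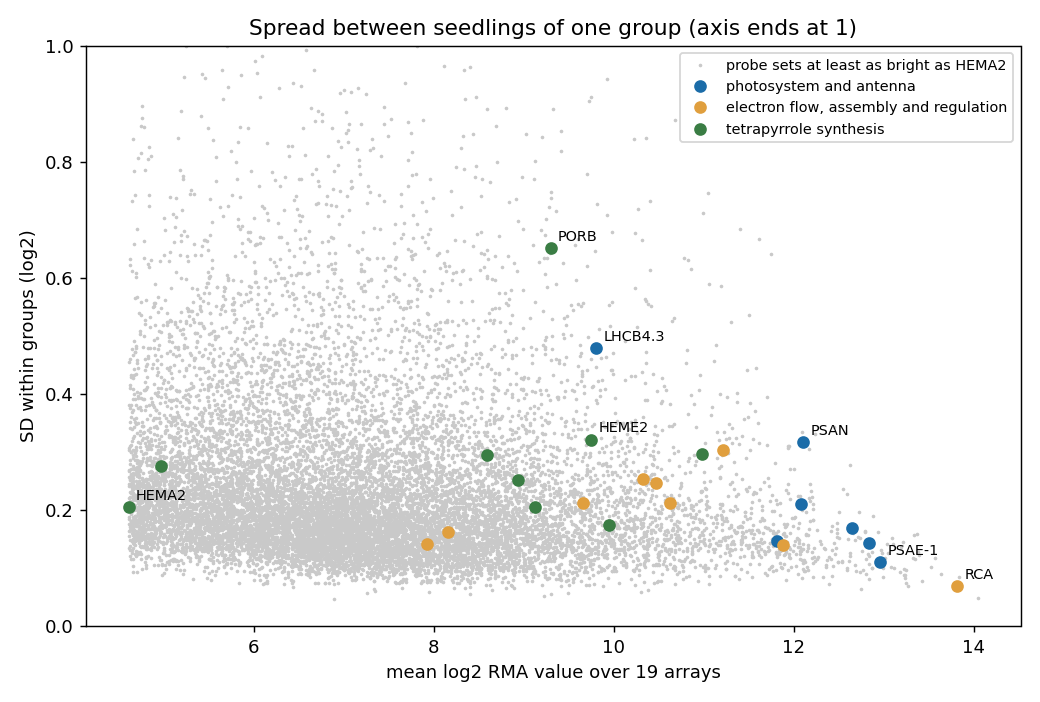
SD within groups (y axis, ending at 1, with 91 grey probe sets beyond it) against the mean log2 value (x axis) for 25 of the 27 genes, coloured by role, and for all probe sets at least as bright as HEMA2 in grey. PORB and LHCB4.3 lie well above the bulk and RCA at the bright, narrow end.

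Between the reciprocal triploids genome dosage is equal, and the parent that gave the larger share differs. In 3x(p) minus 3x(m) limma called 0 of 27 genes, against 0.00440% of all probe sets, and 0 had an unadjusted p under 0.05, against 6.09%. The intervals of all 27 lay within a fold of 2, as did those of 97.0% of all probe sets. The median difference was 0.018, and the range ran from −0.23 for LHCB4.3 to 0.21 for PORB. Both ends rested on single seedlings. LHCB4.3 was at 0.053 without 3x(m) 4, and PORB at 0.54 without 3x(m) 4 and −0.078 without 3x(p) 3. Without 3x(m) 4 the median was 0.099 with 25 of 27 positive, and without 3x(p) 3 it was −0.044 with 9 positive, so its sign rested on single seedlings. It was −0.037 without 3x(m) 5 and −0.00011 without 3x(p) 1. No gene was without overlap, against 0.356% of all probe sets higher and 0.387% lower in 3x(p).

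The triploids were also set against the tetraploids. In 3x(m) minus 4x limma called 0 of 27 genes (background 0.0747%) and 0 had an unadjusted p under 0.05 (background 8.49%). The differences ran from −0.27 for PORB to 0.25 for LHCB4.3. Without 3x(m) 4 they ran from −0.60 for PORB to 0.082 for HEMB1, with LHCB4.3 at −0.034, and without 3x(m) 5 PORB was at −0.11. Over all seedlings hemb2 had the smallest adjusted p, 0.644, with −0.19 ± 0.0981. The median was 0.0066, and −0.072 to 0.047 with a seedling left out, lowest without 3x(m) 4. No gene was without overlap (0.769% of all probe sets higher and 0.822% lower in 3x(m)). In 3x(p) minus 4x 0 of 27 were called (background 0.0220%), 0 had an unadjusted p under 0.05 (background 4.86%), and the differences ran from −0.18 for CaS to 0.26 for PSAN. The median was 0.0056, and −0.052 to 0.056 with a seedling left out, lowest without 3x(p) 3. No gene was without overlap (0.444% of all probe sets higher and 0.457% lower in 3x(p)).

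Other genes of these pathways could be followed only in small part, because the annotation used here names few of their probe sets. Of 115 further loci of antenna, photosystem, electron flow, carbon fixation, tetrapyrrole, chlorophyll breakdown and regulatory function, 7 had a single-gene probe set, and 0 of the 7 passed limma in any of the 6 comparisons. At an unadjusted p under 0.05 there was 1, SBPASE in 3x(p) against 2x. In carbon fixation, SBPASE, a phosphatase of the Calvin cycle, averaged 12.01 in 3x(p) against 12.21 in 2x, a difference of −0.19 ± 0.0839 (adjusted p = 0.353). PRK, which makes the acceptor of carbon dioxide, differed by −0.13 ± 0.109 in 3x(p). In the electron flow list ATPC1, a subunit of the ATP synthase, differed from diploids by −0.032, −0.019 and −0.043 in 3x(p), 3x(m) and 4x, and PIFI by 0.17, −0.025 and −0.036. In the tetrapyrrole list CHLP, which makes the phytyl tail of chlorophyll, differed by −0.088, −0.002 and −0.038, and SIRB, of sirohaem synthesis, by −0.055, −0.12 and 0.083. NOL, of chlorophyll b breakdown, differed by −0.035, −0.043 and −0.13. Of the senescence markers 2 of 5 were measured and 0 passed, with 1 at an unadjusted p under 0.05 in each comparison with diploids. WRKY53 averaged 5.77 in 3x(p), 5.35 in 3x(m) and 5.47 in 4x, against 4.06 in 2x (SE of each difference 0.576, limma adjusted p = 0.2, 0.999 and 0.293). SAG101 differed by 0.11, 0.26 and 0.11. In diploids both markers averaged 4.06, at about the limit of the dimmest 30% of probe sets (4.07), so these differences are uncertain. For the 69 plastid-encoded genes the medians were 0.23, 0.34 and 0.33, beside 0.085, 0.055 and 0.056 for the 27 nuclear genes. Limma called 0 of 69 in each. It gave 5, 18 and 14 at an unadjusted p under 0.05 (7.25%, 26.1% and 20.3%, against 12.2%, 4.33% and 12.9% of all probe sets). Among the diploids the median deviation of the plastid-encoded genes ran from −0.73 in 2x 1 to 0.23 in 2x 3. How far their differences rest on single diploids was not tested.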

How the data were processed

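The authors deposited log2 values made with RMA (background correction, quantile normalization between arrays, 1 value per probe set), per the submitters' processing notes; the version is not given in the sources used here. Of 22810 probe sets 64 controls were set aside and 22746 tested. Genes were named by the platform annotation (13513 single-gene probe sets), with loci and chromosomes from a TAIR10.1 gene table; the array values name no build, so no coordinates are given. A gene with several probe sets would enter by the brightest, but all 27 had 1. Groups were fitted with limma 3.58.1 in R 4.3.3, 1 coefficient per group over 19 seedlings, with moderated variances and p-values adjusted by Benjamini-Hochberg over all probe sets (threshold 0.05). Differences carry ± SE and group means ± SD. For arrays, their number limits the precision. Values of every seedling are given for the 8 genes with the smallest F p and for LHCB4.3, which was added after its values were seen as part of its family. The genes, lists and tests were chosen with earlier results of these data known. The fit was tested on simulated data. Alternatives were the compared groups only, eBayes with trend and robust, no dim probe sets, a further quantile normalization, array weights, a replicate block, 1 probe set per gene and leaving out each seedling. Figures used matplotlib 3.10.9 in Python 3.11.15.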

Additional observations from a re-analysis of the deposited data

Results flagged for a closer look

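Within each group, values of the 27 genes and of the seedlings' median were examined for a seedling whose gap to its nearest neighbour was large for the range of its group. Of 112 sets of values 8 had one, where chance gives about 1 in 20, or 5.6. In 3x(p) 3, HEME1 was at 9.08, with the other 3x(p) seedlings between 8.40 and 8.52, and PORB at 10.67, with the others between 9.11 and 9.40. In 3x(m) 4, LHCB4.3 was at 11.10, with the other 3x(m) seedlings between 9.50 and 9.89, and GSA1 at 9.74, with the others between 9.02 and 9.08. In 3x(m) 5, HEMB1 was at 9.69, below the others at 10.01 to 10.13. Among the tetraploids, LHCB4.1 was at 12.58 in 4x 5, with the others between 12.71 and 12.74. RCA was at 13.72 in 4x 3, with the others at 13.825 or 13.8376, values that recur in several arrays. Among the diploids, LPA1 was at 8.13 in 2x 4, with the others between 7.95 and 7.97.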

How the results depend on the processing

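The count of genes called was 0 of 27 in each of the 6 comparisons and in the F test. It stayed 0 under all alternatives that were run, 26 per comparison and 25 for the F test. The run without dim probe sets lacked HEMA3 and hemb2, so its counts and medians are over 25 genes. The smallest adjusted p of any of the 27 was 0.114, in 4x minus 2x with only these groups fitted. For the 9 genes given with the values of all seedlings, 0 of 1398 alternative differences passed and 66 had the opposite sign. The median differences over the 27 genes turned sign in some alternatives. All moves were smaller than the spread of single seedlings' medians within groups (SD 0.139). That spread exceeds every median difference, the largest being 0.085, so it cannot show whether their signs hold. Leaving out a seedling took them from 0.0098 to 0.15 in 3x(p) minus 2x, −0.031 to 0.11 in 3x(m) minus 2x, 0.011 to 0.11 in 4x minus 2x, −0.044 to 0.099 in 3x(p) minus 3x(m), −0.072 to 0.047 in 3x(m) minus 4x and −0.052 to 0.056 in 3x(p) minus 4x. With array weights they were −0.072 in 3x(m) minus 2x and −0.0062 in 4x minus 2x. The background counts over all probe sets moved more. In 3x(p) minus 2x, 262 were called, 109 with only these groups fitted, 423 with array weights (256 higher) and 107 to 356 with a seedling left out. In 4x minus 2x, 218 were called, 451 with only these groups, 1017 with array weights (466 higher) and 77 to 382 with a seedling left out. In 3x(m) minus 2x the 8 became 0 with only these groups and 1 to 17 with a seedling left out. In 3x(m) minus 4x the 17 became 45 with array weights and 6 to 56 with a seedling left out, in 3x(p) minus 3x(m) the 1 became 0 with only these groups and 1 to 4, and in 3x(p) minus 4x the 5 became 1 with only these groups and 2 to 5. With the replicate block the counts were 28 in 3x(m) minus 4x, 2 in 3x(p) minus 3x(m) and 8 in 3x(p) minus 4x. Same-numbered seedlings correlated between −0.38 and 0.43 over 27 pairs, 12 of them above 0.1. Of 19 seedlings 6 correlated best with their own number. No chance level was set beside these values, so they cannot decide whether the numbers pair the seedlings. The main fit left the seedlings unpaired. The cause of the moves in the counts was not tested. Averaging several probe sets per gene gave no separate value, as each gene had 1.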

Other observations

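The tetraploid seedlings were close to each other for many of these genes. The SD was smallest in 4x for 14 of the 27, in 2x for 9, and in 3x(p) and 3x(m) for 2 each, and over all probe sets the share smallest in 4x was 33.1%. The median SD of the 27 genes was 0.23 in 3x(p), 0.23 in 3x(m), 0.15 in 4x and 0.20 in 2x, and 0.18 in 3x(m) without 3x(m) 4. Over all probe sets it was 0.18, 0.18, 0.15 and 0.15. This was noticed in the data, and the difference in spread was not tested.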
